A study of Bos taurus with 8 samples.

Results

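Parthenogenetic eSLCs (PA-eSLCs) were compared with somatic cells (SCs) on 4 of the 8 arrays of the study. Embryo-derived stem-like cells (eSLCs) are lines that grow as colonies from bovine blastocysts. The PA-eSLC arrays were the lines P1 at passage 31 and P4 at passage 36, and the SC arrays were SC P5 at passage 5 and SC P10 at passage 10. The other 4 arrays, I2 (passage 35) and I9 (passage 30) from in vitro produced embryos (IVP-eSLCs) and N2 (passage 36) and N7 (passage 30) from nuclear transfer embryos (NT-eSLCs), served to find the genes that separated PA-eSLCs alone from SCs. All cells came from HanWoo, a Korean native cattle breed. PA embryos were made from oocytes activated with a calcium ionophore and 6-DMAP without sperm, so each PA line, by its label, comes from 1 embryo with maternal chromosomes. The eSLCs were kept on mitotically inactivated mouse STO feeder cells in a serum-free medium with 3 inhibitors, PD184352 against MEK, SU5402 against FGF receptors and CHIR99021 against GSK3, and were passaged mechanically. SCs were grown in DMEM with fetal bovine serum and without these inhibitors, so that medium, feeder cells and cell origin changed together between the conditions compared and cannot be told apart. The tissue of the SCs is not given in the labels, nor whether the 2 passages are separate cultures, so p-values measure only the spread between these arrays, which may be technical.

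A blastocyst holds 3 early lineages. The trophectoderm is the outer epithelium that forms the embryonic part of the placenta, the epiblast forms the body, and the hypoblast lines the yolk sac. In cattle the trophectoderm secretes families of proteins of its own, among them the pregnancy-associated glycoproteins (PAG), the trophoblast Kunitz domain proteins (TKDP) and interferon tau. Imprinted genes are expressed from 1 parental copy only. A parthenogenetic embryo carries no paternal chromosomes, so maternally expressed imprinted genes can be active from both copies and paternally expressed ones are marked for silencing on both.

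Each value below is the background-subtracted signal of 1 probe, scaled so that the 75th percentile of an array is 1000, with a floor of 13.28 below which no signal was read. Pairs of signals are given in the order P1 and P4 for PA-eSLCs, and SC P5 and SC P10 for SCs. Differences are PA-eSLC minus SC on the log2 scale, with the standard error (SE) of a limma fit over all 8 arrays, and n is 2 arrays per condition throughout. A gene was called at a Benjamini-Hochberg adjusted p under 0.05 over the 10957 genes tested and a difference of at least 2-fold. For a gene that was at the floor or not well above background on each array of the dim condition, the fold is a lower bound, computed against that floor and given as "at least". Levels of different genes are not compared, since probes differ in brightness.

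Distances between the arrays did not follow origin alone. The parts of origin, slide, passage and line in them were not tested. P1, P4, SC P10 and N2 lay on slide 2, and I2, I9, N7 and SC P5 on slide 1, so both PA arrays shared a slide with 1 SC array. The SD of the log2 difference between arrays over 10957 genes was 2.25 to 2.37 for the 4 pairs of a PA and an SC array, 0.68 between P1 and P4 and 0.41 between SC P5 and SC P10. P1 (0.61) and P4 (0.56) were each nearer to I2 than to each other, and I9 and N2, of different origin and slide, lay 0.38 apart. The Y-linked genes DDX3Y and USP9Y, which no oocyte carries, gave signals of 368.7 and 156.8 on the array labelled P1 and were at the floor on P4. On P1 the Y-linked EIF1AY, TSPY and SRY were at the floor. In the Y-linked list, ZNF280BY and ZFY were tested, and neither was called. ZNF280BY read 500.5 and 457 in PA-eSLCs and 58.0 and 79.2 in SCs. ZFY read 79.7 and 113 in PA-eSLCs and 184 and 169 in SCs. Outside that list, the Y-annotated PLCXD1 read 11915 and 7208 in PA-eSLCs, with both SC arrays at the floor. LOC785023, also annotated to Y, read 88.3 and 82.8 in PA-eSLCs and 42.9 and 41.0 in SCs. None of these genes set P1 apart from P4 as DDX3Y and USP9Y did. Among imprinted genes, P1 was the highest of all arrays for the maternally expressed PHLDA2, H19, CDKN1C, ASCL2 and MEG3. It was also the highest for the paternally expressed NNAT, DLK1 and IMPACT, and the lowest for the maternally expressed TSSC4, GRB10 and UBE3A. What these genes mean for the label was not tested. The signals of DDX3Y and USP9Y go against the label of P1, which may be wrong. PA-eSLC values that rest on P1 are therefore those of the array labelled P1. Calls that ended without P1 are given beside the result.

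Marker genes set the conditions apart. Of 17 trophectoderm markers with a probe, 16 were well above background on both PA arrays and 12 on both SC arrays. Their summed signal was 1542900 and 1188300 in PA-eSLCs and 18305 and 17785 in SCs. The marker TFAP2A went the other way, at 5061 and 3868 in PA-eSLCs and 9013 and 9771 in SCs. All 12 fibroblast markers were well above background on both SC arrays. Their summed signal was 748930 and 910990 in SCs and 17588 and 18714 in PA-eSLCs, where 10 of the 12 were still well above background on both arrays. How much of this came from the mouse feeder cells was not tested. The leukocyte markers PTPRC and CD14 summed to 27740 and 14408 in PA-eSLCs and 3600 and 3373 in SCs, although the probes of PTPRC differed, with log2 differences from -0.2 to 2.6. Keratinocyte markers summed to 2318 and 1651 in PA-eSLCs and 6348 and 3042 in SCs. Hypoblast markers summed to 2047 and 2534 in PA-eSLCs and 9047 and 7945 in SCs. Most of the SC sum came from PDGFRA (5575 and 5155) and SOX17 (3439 and 2758). The marker GATA4 went the other way, at 73.1 and 131 in PA-eSLCs and 19.1 and 18.4 in SCs, and was not called. Of 3 endothelial markers, CDH5 was at the floor on all 8 arrays. PECAM1 read 44.2 and 33.5 in PA-eSLCs, with both SC arrays at the floor (at least 2.9-fold higher), a call that ended in the mean of its probes, and its other probe gave a log2 difference of -0.65. VWF read 22.3 and 52.4 in PA-eSLCs and 61.8 and 75.9 in SCs and was not called. Epiblast markers summed to 1607 and 1322 in PA-eSLCs and 517 and 619 in SCs. Most of the PA-eSLC sum came from SALL4 (1361 and 1188), and the marker SOX2 was lower in PA-eSLCs than in SCs. NANOG, a core pluripotency factor, read 35.4 on P1 and was at the floor on P4 and in SCs. The germ-line gene DPPA3 was at the floor on all 4 arrays.

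Of the 10957 genes tested, 2229 (20.3%) were called higher in PA-eSLCs than in SCs and 1633 (14.9%) were called lower, 3862 (35.2%) in all. These shares are the background against which the counts of every gene list are given. The median log2 difference over all genes tested was 0.27, and 0.12 after quantile normalization, so small positive differences are read against that shift. In every called gene both PA arrays lay on the same side of both SC arrays, including SC P10 on their own slide, as they did in 78.1% of all genes tested. At least 8-fold separated 707 of the genes called higher and 637 of those called lower, and at least 512-fold separated 53 and 31. SCs were not well above background for 278 of the genes called higher, and PA-eSLCs for 207 of those called lower. An exact permutation test of 2 arrays against 2 cannot give a p below 0.3333, so single genes rest on the spread pooled by limma. The counts were 1535 and 1172 without P1, 1257 and 957 without SC P5, 1445 and 1032 without SC P10, and 1303 and 1001 with the SC arrays counted as 1 sample. Bulk signals cannot separate fewer cells of a type from less RNA per cell.

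**Figure D1:**
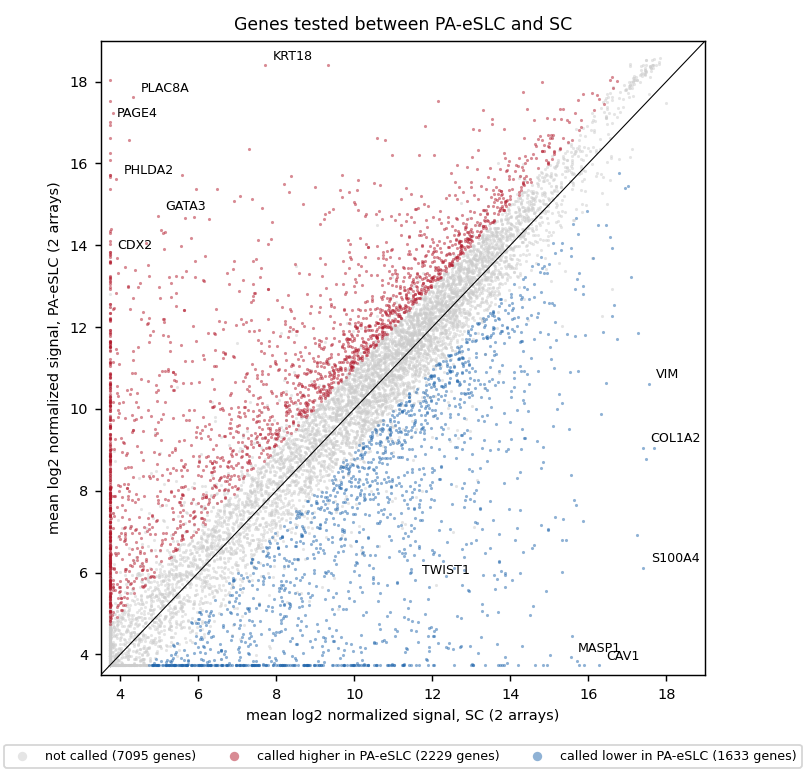
Mean log2 normalized signal of the 10957 genes tested in SCs (x axis, 2 arrays) and PA-eSLCs (y axis, 2 arrays), with the line of equal signal. Red points are the 2229 genes called higher and blue points the 1633 called lower in PA-eSLCs, and points along the left and lower edges are at the floor in 1 condition.

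The largest rises, among genes measured above the floor on all 4 arrays, were taken by rank and included placental and epithelial genes. PLAC8A, a gene named for its placental expression, read 251350 and 161040 in PA-eSLCs and 21.6 and 18.9 in SCs, a log2 difference of 13.28 ± 0.54. PA-eSLCs also rose in SSLP1 (100230 and 95610 in PA-eSLCs and 18.7 and 18.8 in SCs, 12.35 ± 0.93), although the probes of this gene differed, with log2 differences from 0.1 to 12.3. KRT18, a keratin of simple epithelia, read 382450 and 313890 in PA-eSLCs and 286 and 155 in SCs (10.69 ± 0.56). PAG8, one of the pregnancy-associated glycoproteins, read 95525 and 30480 in PA-eSLCs and 36.7 and 61.8 in SCs (10.15 ± 0.70). Both PA arrays were far above both SC arrays in these genes, and P1 was above P4 in each.

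GATA3, a transcription factor that specifies trophectoderm, read 30132 and 24423 in PA-eSLCs and 39.5 and 25.0 in SCs (9.75 ± 0.41, adjusted p = 4.1e-05). AP1M2, an adaptor subunit for sorting in epithelial cells, read 42281 and 42717 in PA-eSLCs and 92.9 and 40.9 in SCs (9.43 ± 0.46), with both PA arrays almost equal. Also among the 10 largest rises were PLBD1 (log2 difference 9.41), the neuronal intermediate filament gene PRPH (9.33), MUC1, a mucin of the apical surface of epithelia (9.21), and SPINT1, an inhibitor of membrane serine proteases (9.19). The call of PRPH ended without either SC array.

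Genes not well above background on either SC array had lower bounds only. PAGE4, an X-linked gene known from placenta and prostate, read 230890 and 153340 in PA-eSLCs and was at least 14168-fold higher than in SCs. The corresponding bounds were 9918-fold for PAG2, 9504-fold for the beta-defensin DEFB, 4078-fold for the zinc importer SLC39A2 and 1326-fold for IGF2BP1, an RNA-binding protein of fetal tissues. TKDP4 (at least 4051-fold) differed between the lines, with 26294 on P1 and 110060 on P4, and its call ended without either SC array. PAG11 (at least 3936-fold) and SH3BGRL2 (at least 1566-fold) completed the 8 largest bounds of genes with a symbol that were not well above background on either SC array. TKDP1, with a larger bound given below, was at the floor on both SC arrays but well above background on SC P5, and so is not ranked here.

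Of the 23 trophectoderm transcription factors tested, 15 (65.2%) were called higher and 1 lower, 13 and 0 without P1, with a median log2 difference of 2.02 against 0.27 for all genes. CDX2, which maintains trophectoderm fate, read 13312 and 14887 in PA-eSLCs, with both SC arrays at the floor, at least 1060-fold higher. ELF5, a factor of trophoblast progenitors, read 2285 and 1377 in PA-eSLCs, with both SC arrays at the floor (at least 134-fold), and OVOL1, which acts in trophoblast differentiation, read 1317 and 2604 in PA-eSLCs, with both SC arrays at the floor (at least 139-fold). Both lines were far above SCs in all 3 factors. GATA2, a partner of GATA3, read 42287 and 41942 in PA-eSLCs and 669 and 945 in SCs (5.73 ± 0.24), and GRHL1, an epithelial factor, read 11737 and 11824 in PA-eSLCs and 20.1 and 34.2 in SCs (8.81 ± 0.32). For TFAP2C, needed for trophectoderm formation, the signals were 16247 and 14812 in PA-eSLCs and 2384 and 1664 in SCs (2.96 ± 0.27). It had the smallest rise of those named here and was not near the floor in either condition. CITED1 (5.64) and the homeobox factor DLX5 (5.26) were also higher.

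The 1 factor called lower was NR2F2, a nuclear receptor of mesenchyme and of differentiated trophoblast, at 246 and 341 in PA-eSLCs and 1769 and 1537 in SCs (-2.51 ± 0.76, adjusted p = 0.0424), with probe differences from -2.72 to -0.62. It was called for PA-eSLCs and not for the other origins, and its call ended without P1, P4, SC P5, SC P10, N2 or N7 and with the slide as a block.

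Of 38 trophoblast products tested, 27 (71.1%) were called higher and 1 lower, 23 and 1 without P1, with a median log2 difference of 6.75. TKDP1 read 287680 and 253510 in PA-eSLCs, with both SC arrays at the floor, at least 20335-fold higher. PAG17 read 15566 and 13635 in PA-eSLCs, with both SC arrays at the floor (at least 1097-fold on its brightest probe). The log2 differences of its 4 probes ran from 1.51 to 10.10. Both families are secreted by ruminant trophoblast, and both lines gave similar signals in these 2 genes. PTGS2, the inducible enzyme of prostaglandin synthesis, read 84227 and 84203 in PA-eSLCs and 257 and 97.5 in SCs (9.06 ± 0.56). The next 4 products act in steroid synthesis and were picked after their values were seen. CYP11A1, which makes pregnenolone from cholesterol, read 15386 and 7458 in PA-eSLCs and 32.1 and 13.3 in SCs (9.02 ± 0.67), HSD3B1, the next enzyme, read 8729 and 7868 in PA-eSLCs and 17.1 and 19.6 in SCs (8.82 ± 0.32), and STAR, which carries cholesterol into mitochondria, read 8094 and 3703 in PA-eSLCs and 53.2 and 47.2 in SCs (6.77 ± 0.64). CYP19A1, the aromatase that makes estrogens, read 271 and 164 in PA-eSLCs, with both SC arrays at the floor, at least 15.9-fold higher on its brightest probe, with log2 differences of its 4 probes from 0.40 to 3.99. The single product called lower was XDH, an enzyme of purine breakdown, at 13.3 and 20.6 in PA-eSLCs and 10637 and 8018 in SCs (-9.13 ± 0.47). IFNT3, an interferon tau, read 146 and 9150 in PA-eSLCs and 112 and 59.6 in SCs and was not called, with P1 just above both SC arrays and P4 far above.

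Epithelial junction and polarity genes showed the highest share of calls of all lists in the plot of list percentages. Of 39 tested, 35 (89.7%) were called higher and 0 lower, 34 and 0 without P1, with a median log2 difference of 6.45. KRT8, the partner of KRT18, read 378620 and 320460 in PA-eSLCs and 877 and 475 in SCs (9.08 ± 0.53), although its probes ranged from 4.3 to 11.2. EPCAM, a cell adhesion molecule of epithelia, read 49069 and 37023 in PA-eSLCs and 147 and 54.2 in SCs (8.90 ± 0.46), and CLDN6, a tight junction protein of embryonic epithelia, read 9318 and 9356 in PA-eSLCs, with both SC arrays at the floor (at least 703-fold). PRSS8 (8.80) and its partner protease ST14 (8.39) were also higher. CDH1, or E-cadherin, read 596 and 437 in PA-eSLCs, with both SC arrays at the floor (at least 38.4-fold), and ESRP1, an epithelial splicing regulator, read 1514 and 1488 in PA-eSLCs, with both SC arrays at the floor (at least 113-fold).

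**Figure D2:**
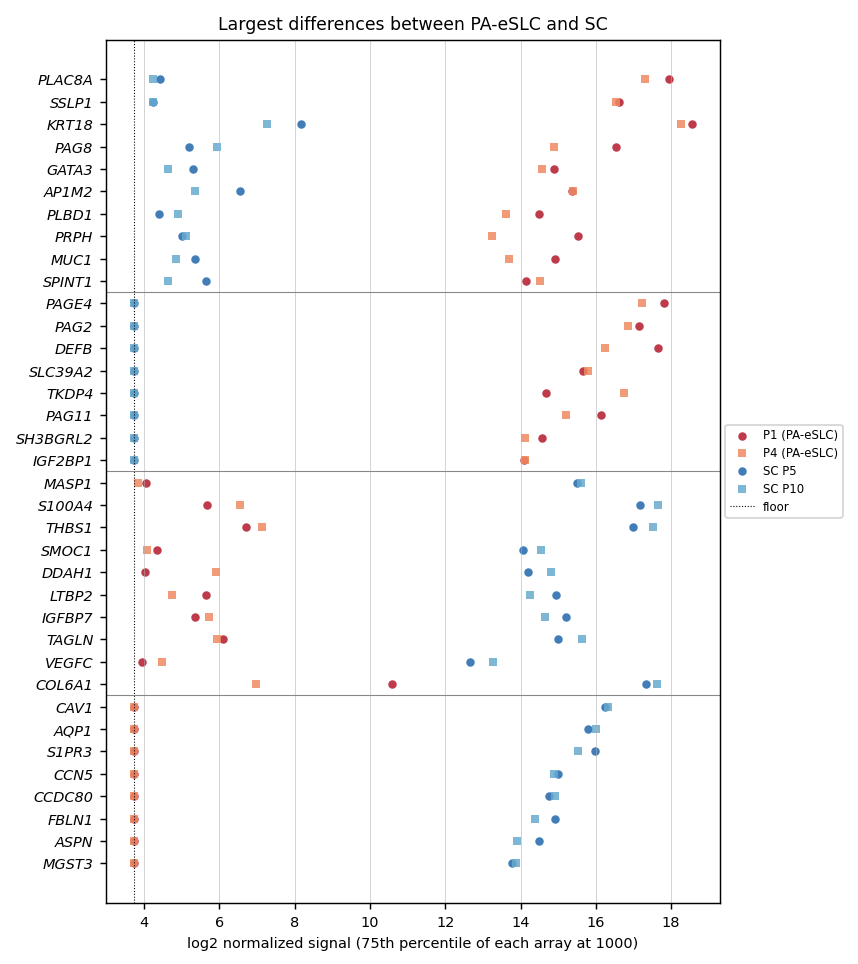
Log2 normalized signal (75th percentile of each array at 1000) of the genes with the largest differences, on the 2 PA-eSLC and 2 SC arrays, 1 symbol per array. From top to bottom, the blocks hold the 10 largest rises, the 8 largest lower bounds of a rise, the 10 largest falls and the 8 largest lower bounds of a fall, with bounds taken among genes not well above background on either array of the dim condition, and the dotted line is the floor. PA-eSLC and SC symbols do not overlap in any gene, and P1 and P4 lie farthest apart in COL6A1 among the genes shown.

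Genes of fibroblast matrix fell. Of 45 tested, 36 (80%) were called lower and 0 higher, 33 and 0 without P1, with a median log2 difference of -5.81. The calls rest on the brightest probe, and other probes could differ. The brightest and lowest probes gave 0.06 and -11.0 in BGN and 0.58 and -10.1 in IGFBP4, neither called. In DCN, called lower for PA-eSLCs alone, they gave -1.02 and -11.7. In NT5E, called lower, the highest probe gave 0.95. S100A4, a calcium-binding protein of fibroblasts, read 51.4 and 93.9 in PA-eSLCs and 148930 and 204680 in SCs (-11.29 ± 0.60). LUM, a collagen-binding proteoglycan, read 13.3 and 18.7 in PA-eSLCs and 38247 and 28636 in SCs (-11.04 ± 0.85), and POSTN, a matrix protein of mesenchyme, read 7655 and 8647 in SCs, with both PA arrays at the floor (at least 613-fold lower). VIM, the intermediate filament of mesenchymal cells, read 780.4 and 3152 in PA-eSLCs and 174180 and 214490 in SCs (-6.95 ± 0.88). Both PA arrays lay far below SCs, and P4 was above P1. COL1A2 read 351 and 801 in PA-eSLCs and 140200 and 213870 in SCs (-8.35 ± 0.59). COL3A1 read 1343 and 1060 in PA-eSLCs and 20672 and 20413 in SCs (-4.11 ± 0.19) on its brightest probe, while the differences of its 10 probes ran from -13.1 to -4.1. COL6A1 read 1549 and 125 in PA-eSLCs and 166220 and 203450 in SCs (-8.71 ± 1.20), where P1 was far above P4 and both were below SCs.

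Other genes were taken from the largest falls by rank, not from a gene list. MASP1, a serine protease of the complement lectin pathway, read 16.4 and 14.2 in PA-eSLCs and 46321 and 49608 in SCs (-11.61 ± 0.53), close to the floor in both lines. SMOC1, a secreted calcium-binding protein, read 20.4 and 16.8 in PA-eSLCs and 17259 and 23932 in SCs (-10.10 ± 0.23). DDAH1 (-9.53), LTBP2 (-9.39), IGFBP7 (-9.38) and the lymphatic growth factor VEGFC (-8.76) followed. CAV1, the main protein of caveolae, was at the floor in PA-eSLCs and read 77491 and 82014 in SCs, at least 6003-fold lower. The water channel AQP1 (at least 4604-fold), the sphingosine phosphate receptor S1PR3 (4151-fold), CCN5 (2383-fold), CCDC80 (2199-fold), FBLN1 (1931-fold), ASPN (1410-fold) and MGST3 (1098-fold) had the other large bounds. The call of MGST3 ended without P4 or either SC array.

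Of 20 mesenchymal transcription factors tested, 17 (85%) were called lower and 0 higher (median -4.10), and 18 were lower without P1. PRRX1, a factor of limb and connective tissue mesenchyme, read 95.7 and 418 in PA-eSLCs and 53627 and 52390 in SCs (-8.05 ± 0.83), although the values the authors normalized gave 1.23. TWIST1, which drives mesenchymal fate, read 54.9 and 58.9 in PA-eSLCs and 2968 and 3089 in SCs (-5.74 ± 0.40), and ZEB1, a repressor of epithelial genes, read 30.4 and 136 in PA-eSLCs and 2749 and 2823 in SCs (-5.44 ± 0.68). In each of these factors both SC arrays were close together, and P4 was above P1. MEOX1 was at the floor in both lines (at least 141-fold lower).

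Contractile and cytoskeletal genes fell as well, 25 (83.3%) of 30 tested and 0 higher (median -2.81), and 16 without either SC array. TPM2, a tropomyosin, read 35.9 and 13.3 in PA-eSLCs and 45812 and 53235 in SCs (-11.14 ± 0.56), and TAGLN, an actin-binding protein of smooth muscle, read 68.7 and 61.3 in PA-eSLCs and 32783 and 50601 in SCs (-9.29 ± 0.92). ACTA2, the smooth muscle actin, read 597 and 471 in PA-eSLCs and 182020 and 246260 in SCs (-8.64 ± 1.26). THBS1 read 105 and 142 in PA-eSLCs and 130830 and 186980 in SCs (-10.32 ± 1.67), and its call ended without either SC array. Of 14 integrin chains, 7 (50%) were called lower and 1 (7.14%) higher. The count lower was 4 without P1, P4 or SC P5 and 4 with the slide as a block.

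**Figure D3:**
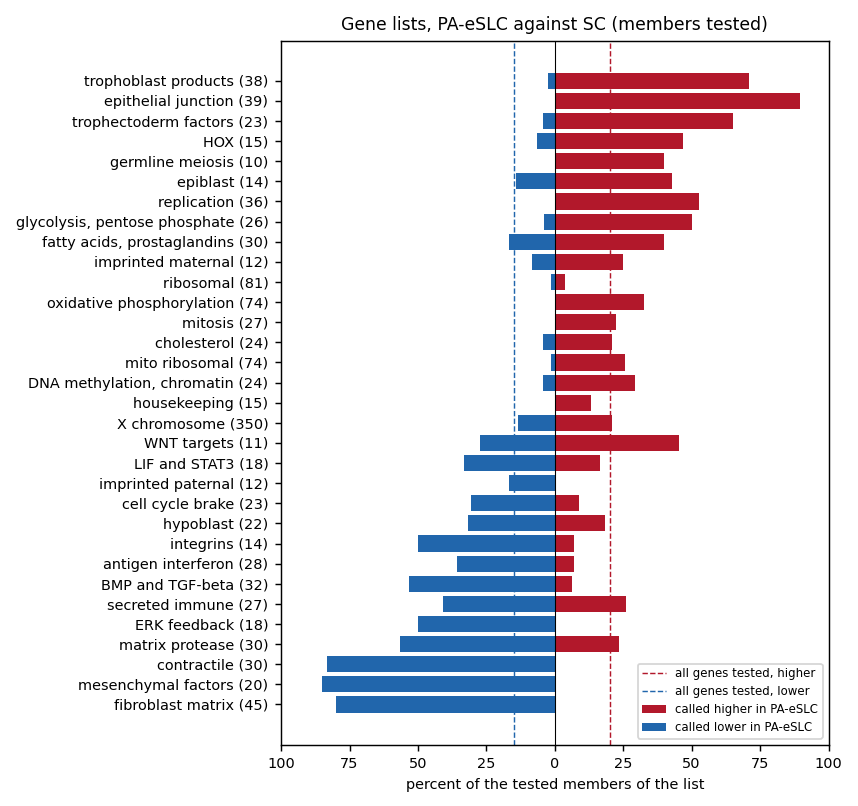
Percent of the tested members of each gene list called higher (red, to the right) and lower (blue, to the left) in PA-eSLCs against SCs, with the number tested in parentheses and the lists ordered by median log2 difference. Dashed lines mark the share of all genes tested, 20.3% higher and 14.9% lower, and the epithelial list reaches 89.7% higher and the mesenchymal factors 85% lower.

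Pluripotency genes of the epiblast moved in both directions. Of 14 tested, 6 (42.9%) were called higher and 2 (14.3%) lower, and 3 were higher without SC P5. SALL4, a zinc finger factor of early embryos, read 1361 and 1188 in PA-eSLCs and 15.5 and 15.4 in SCs (6.36 ± 0.27). LIN28A, which blocks the maturation of let-7 microRNAs, read 293 and 240.0 in PA-eSLCs, with both SC arrays at the floor (at least 20-fold higher). DPPA2 (at least 47.2-fold) and its partner DPPA4 (4.06) were also higher, and both calls ended without SC P5. SOX2, a core factor of the epiblast, read 96.4 and 46.8 in PA-eSLCs and 459 and 551 in SCs (-2.90 ± 0.40), and KLF4 read 671 and 567 in PA-eSLCs and 3852 and 3196 in SCs (-2.51 ± 0.37). Both were lower on each PA array than on each SC array. POU5F1, which encodes OCT4, read 101 and 60.7 in PA-eSLCs and 16.3 and 26.0 in SCs and was not called (1.93 ± 1.31, adjusted p = 0.279), while 898 was read on N7.

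Of 22 hypoblast genes tested, 4 (18.2%) were called higher and 7 (31.8%) lower (median -0.75), against 20.3% and 14.9% of all genes. Both counts fell to 2 without P1, SC P5 or SC P10. AMN, an endocytic receptor subunit of visceral endoderm, read 6309 and 2011 in PA-eSLCs and 26.8 and 27.6 in SCs (7.03 ± 0.63), and DAB2, an endocytic adaptor, read 38626 and 34592 in PA-eSLCs and 5710 and 4800 in SCs (2.80 ± 0.21), although the 7 probes of DAB2 ran from -0.49 to 2.81. TTR, a carrier protein of thyroid hormone, read 33.2 and 25.6 in PA-eSLCs and 2820 and 2507 in SCs (-6.51 ± 0.21). PDGFRA, also a receptor of fibroblasts, read 42.6 and 276 in PA-eSLCs and 5575 and 5155 in SCs (-5.63 ± 1.32), and its call ended without P1 or either SC array.

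Of 15 HOX genes tested, which pattern the body axis, 7 (46.7%) were called higher and 1 (6.67%) lower, with 4 higher without either SC array. HOXD4 read 2000 and 1010 in PA-eSLCs and 18.5 and 17.5 in SCs (6.30 ± 0.46), HOXB4 read 385 and 427 in PA-eSLCs, with both SC arrays at the floor (at least 30.5-fold) and HOXA4 read 235 and 252 in PA-eSLCs and 19.6 and 23.2 in SCs (3.51 ± 0.39). HOXA2 was the 1 called lower, at 27.5 and 29.4 in PA-eSLCs and 163 and 150.5 in SCs (-2.46 ± 0.51), and its call ended without P1, P4 or either SC array. Both lines were above both SC arrays in the 3 genes called higher.

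Of 24 genes of DNA methylation and chromatin tested, 7 (29.2%) were called higher and 1 lower, and 2 or 3 were higher without P1, P4, SC P5 or SC P10. DNMT3A, a de novo DNA methyltransferase, read 31995 and 33597 in PA-eSLCs and 896 and 1197 in SCs (4.98 ± 1.09) on its brightest probe, with probe differences from 0.8 to 5.0. DNMT3B read 532 and 429.7 in PA-eSLCs, with both SC arrays at the floor (at least 36-fold). PADI4, which converts arginine in histones, read 4903 and 4532 in PA-eSLCs and 37.2 and 32.7 in SCs (7.08 ± 1.32). Both lines gave similar signals in these 3 genes, and their calls ended without P1, P4, SC P5 or SC P10. HMGA1, an architectural chromatin protein, read 134900 and 120680 in PA-eSLCs and 11888 and 11801 in SCs (3.43 ± 0.30) and kept its call without each array. SMARCA2, a chromatin remodelling ATPase, was the 1 called lower (-1.43), and its call ended without any of these 4 arrays.

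Imprinted genes were compared by the parental copy they are known to be expressed from. Of 12 maternally expressed genes tested, 3 were called higher and 1 lower, a share of 25% higher against 20.3% of all genes, with a median log2 difference of 0.90. Without P1, whose label the Y-linked signals go against, the counts were 3 and 1 and the median was 0.22. In the values the authors normalized, 7 were called higher and 1 lower. PHLDA2, which limits placental growth, read 141590 and 17961 in PA-eSLCs and 13.3 and 16.9 in SCs (11.72 ± 1.45). P1 was far above P4, and both were above SCs. The other eSLCs read 62162 on I2, 3956 on I9, 4249 on N2 and 4268 on N7. CDKN1C, a cell cycle inhibitor, read 41176 and 18933 in PA-eSLCs and 1957 and 801 in SCs (4.48 ± 0.73), and its call ended without SC P10. ASCL2, a factor of trophoblast progenitors, read 10263 and 7724 in PA-eSLCs, with both SC arrays at the floor (at least 670.4-fold). TFPI2, a Kunitz-type protease inhibitor, was lower, at 42.6 and 13.3 in PA-eSLCs and 3352 and 2774 in SCs (-7.00 ± 1.01).

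The non-coding RNAs H19 and MEG3 were higher on P1 than on P4. H19 read 775 and 52.5 in PA-eSLCs and 57.4 and 42.0 in SCs (2.04 ± 1.42, not called), so P4 lay within the range of SCs. The other eSLCs read 105 on I2, 49.7 on I9, 25.2 on N2 and 164 on N7. MEG3 read 207 and 13.3 in PA-eSLCs and 13.3 and 13.8 in SCs (1.95 ± 1.24, not called) and was at the floor on P4, and it was called higher without P4 (3.93), while the difference was -0.03 without P1. It read 173 on I2, 62.1 on I9, 70.6 on N2 and 55.6 on N7, so P4 was the 1 eSLC array at the floor. IGF2R read 8800 and 9234 in PA-eSLCs and 4487 and 6525 in SCs (0.74 ± 0.43, not called), with both PA arrays above both SC arrays. TSSC4 read 2091 and 3729 in PA-eSLCs and 5334 and 6328 in SCs (-1.06 ± 0.42, not called, and 3.64 in the values the authors normalized) and GRB10 read 1954 and 3052 in PA-eSLCs and 4842 and 5529 in SCs (-1.08 ± 0.48, not called), lower on each PA array than on each SC array.

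Of 12 paternally expressed genes tested, 0 were called higher and 2 lower, 16.7% against 14.9% of all genes, with a median of -0.34. This median turned to 0.08 with the slide as a block and to 0.14 without P4, and was -0.60 with 3 called lower without P1. SGCE, a sarcoglycan, read 35.7 and 13.3 in PA-eSLCs and 4022 and 3567 in SCs (-7.44 ± 0.62), and PLAGL1, a zinc finger factor, was at the floor in both lines and read 1287 and 1327 in SCs, at least 98.4-fold lower. The other eSLCs read 13.3 on I2, 35.8 on I9, 20.7 on N2 and 16.9 on N7 for SGCE and 13.3 on I2, 13.3 on I9, 25.8 on N2 and 13.3 on N7 for PLAGL1, so both genes were low on all 6 eSLC arrays. SNRPN, a splicing protein gene expressed from the paternal copy in other mammals, read 4595 and 6702 in PA-eSLCs and 3594 and 3653 in SCs (0.62 ± 0.26, adjusted p = 0.108). Its signal on both PA arrays was above both SC arrays. SNURF, from the same transcript, read 386 and 414 in PA-eSLCs and 272 and 301 in SCs (0.48 ± 0.21). The other eSLCs read 4617 on I2, 6322 on I9, 5746 on N2 and 5676 on N7 for SNRPN. For SNURF they read 386.2 on I2, 499.6 on I9, 486.5 on N2 and 419.7 on N7. P4 was the highest of the 8 arrays for SNRPN, and P1 was close to I2 in both genes. NNAT read 1002 and 93.6 in PA-eSLCs and 799 and 804 in SCs and NDN read 326 and 98.1 in PA-eSLCs and 523 and 480.4 in SCs, neither called, with P4 the lowest of the 4 arrays in both. NNAT was called lower without P1 (-3.10). IGF2, a growth factor, read 729.8 and 179.6 in PA-eSLCs and 565 and 229.8 in SCs, overlapping between the conditions. MEST (730.3 and 630.5 in PA-eSLCs and 881 and 544 in SCs) and IMPACT (669.5 and 474 in PA-eSLCs and 564 and 594 in SCs) overlapped too. The 5 probes of MEST gave log2 differences from -3.18 to 0.04. DLK1 read 9200 and 4976 in PA-eSLCs and 5633 and 4551 in SCs and also overlapped, with probe differences from 0.42 to 7.63. PEG10, RTL1 and DIO3 were at the floor on all 8 arrays and were not tested.

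**Figure D4:**
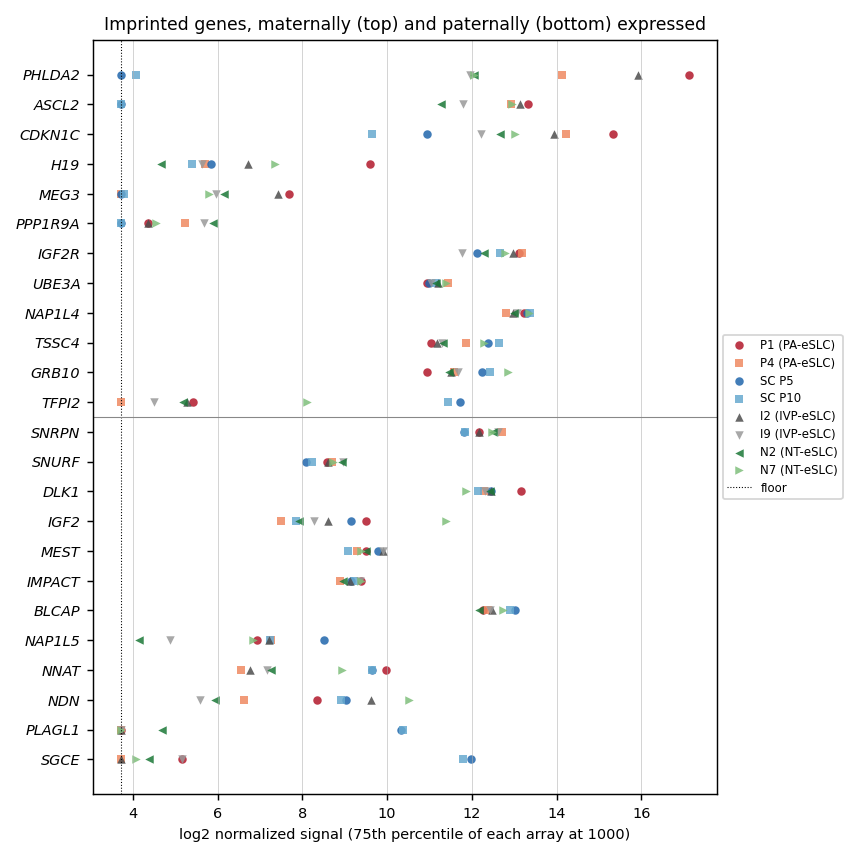
Log2 normalized signal (75th percentile of each array at 1000) of the 12 maternally expressed (top) and 12 paternally expressed (bottom) imprinted genes tested, on all 8 arrays, 1 symbol per array. P1 is the highest array for PHLDA2 and H19, and in SNRPN and SNURF both PA arrays lie to the right of both SC arrays.

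Genes of the signalling pathways that the 3 inhibitors act on differed between the conditions. ERK feedback genes are transcribed in response to MEK and ERK activity. Of 18 tested, 9 (50%) were called lower and 0 higher (median -1.72), and 5 without either SC array. ETV1, an ETS factor, read 13.3 and 24.1 in PA-eSLCs and 5309 and 5471 in SCs (-8.23 ± 0.32), and ETV5 read 384 and 536 in SCs, with both PA arrays at the floor (at least 34.1-fold lower). SPRY1, a feedback inhibitor of receptor tyrosine kinases, read 559.6 and 519 in PA-eSLCs and 5427 and 3002 in SCs (-2.90 ± 0.41), and CCND1, cyclin D1, read 2958 and 3543 in PA-eSLCs and 18088 and 21950 in SCs (-2.62 ± 0.24). In these 4 genes both PA arrays were below both SC arrays.

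Of 11 targets and regulators of WNT signalling tested, 5 (45.5%) were called higher and 3 (27.3%) lower, 2 and 2 without either SC array. The median was 0.22, and -0.03 in the values the authors normalized. AXIN2, a negative feedback target, read 224 and 219.9 in PA-eSLCs and 26.7 and 17.9 in SCs (3.34 ± 0.57) on its brightest probe and 0.36 on the other, and its call ended without SC P10 and in the values the authors normalized, which gave -0.03. DKK1, a secreted WNT inhibitor, read 13.3 and 20.1 in PA-eSLCs and 141 and 168 in SCs (-3.24 ± 0.63), a call that ended without P1 or either SC array, and LEF1, a factor that partners beta-catenin, was at the floor in both lines (at least 3.96-fold lower). WIF1, another secreted inhibitor, read 21.3 and 14.5 in PA-eSLCs and 155 and 110.3 in SCs (-2.89 ± 0.29).

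Of 18 genes of LIF and STAT3 signalling tested, 3 (16.7%) were called higher and 6 (33.3%) lower, 3 lower without P1 or either SC array. The shares of all genes were 20.3% and 14.9%. IL6R, a cytokine receptor chain, read 3320 and 2683 in PA-eSLCs and 225 and 225 in SCs (3.73 ± 0.33), and the kinase TYK2 rose by 2.33 on its brightest probe, while the other probe gave -0.91. OSMR, the oncostatin M receptor, was at the floor in both lines (at least 22.3-fold lower), and JAK1 read 1366 and 1801 in PA-eSLCs and 8449 and 7402 in SCs (-2.33 ± 0.23). STAT3 read 23.6 and 24.7 in PA-eSLCs and 2853 and 2799 in SCs (-6.87 ± 0.52) on its brightest probe, while its 5 probes ran from -6.9 to -1.1. SOCS3, the feedback inhibitor of STAT3, read 260.3 and 985 in PA-eSLCs and 13.3 and 15.3 in SCs and was not called, although both lines were above SCs.

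Of 32 genes of BMP and TGF-beta signalling tested, 17 (53.1%) were called lower and 2 higher (median -1.65), and 8 to 11 lower without P1, P4, SC P5 or SC P10. ID3, a target of BMP signalling, read 1264 and 1829 in SCs, with both PA arrays at the floor (at least 114-fold lower), and INHBA, the activin A subunit, read 1362 and 774 in PA-eSLCs and 38953 and 35772 in SCs (-5.18 ± 0.91), a call that ended without P4 or either SC array. ID1 read 85.1 and 74.6 in PA-eSLCs and 1205 and 5753 in SCs (-5.05 ± 1.23), with the SC arrays far apart, and its call ended without I2, P1, P4 or either SC array and with the slide as a block, and the values the authors normalized gave 2.62. ACVR2B, an activin receptor, was higher at 255 and 302 in PA-eSLCs and 46.9 and 54.6 in SCs (2.46 ± 0.21).

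Genes of DNA replication rose, 19 (52.8%) of 36 tested with 0 lower (median 1.23). The count was 8 without P1, 5 without P4, 9 without SC P5 and 12 with the slide as a block. ORC1, of the origin recognition complex, read 833 and 1197 in PA-eSLCs and 62.0 and 159 in SCs (3.33 ± 0.50), and LIG1, the ligase of lagging strand fragments, read 40782 and 35731 in PA-eSLCs and 4503 and 6697 in SCs (2.80 ± 0.51). POLD1 (2.28) and FEN1 (2.06) were also higher. SC P10 was above SC P5 in these 4 genes. The call of LIG1 ended without P1, P4 or SC P5, that of POLD1 without P1 and that of FEN1 without P4. Of 27 genes of mitosis, 6 (22.2%) were called higher and 0 lower, close to the share of all genes, and 3 without P1 or SC P5 and 10 without SC P10. MAD2L1, of the spindle checkpoint, read 19112 and 18334 in PA-eSLCs and 2250 and 3308 in SCs (2.78 ± 0.33), and the kinases AURKA (2.16) and CDK1 (1.91) were higher as well.

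Of 23 genes that brake or start the cell cycle, 7 (30.4%) were called lower and 2 (8.7%) higher. The counts were 0 higher without P1, P4 or SC P5 and 4 lower without SC P5. CDKN2B, an inhibitor of CDK4 and CDK6, was at the floor in both lines and read 2971 and 2016 in SCs, at least 184-fold lower. RB1, the retinoblastoma protein, read 142 and 181 in PA-eSLCs and 1956 and 2175 in SCs (-3.69 ± 0.22). Its relative RBL2 fell by 2.59 on the log2 scale on its brightest probe, while its 5 probes ran from -2.59 to -0.06. CDK2 read 4937 and 4959 in PA-eSLCs and 703 and 1708 in SCs (2.17 ± 0.46) and CCNE1, its cyclin, read 925 and 1294 in PA-eSLCs and 264 and 394 in SCs (1.76 ± 0.49). The calls of both ended without P1, P4 or SC P5, that of CCNE1 also without SC P10, I2 or I9, and that of RBL2 without SC P5.

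Genes of glycolysis and the pentose phosphate pathway rose, 13 (50%) of 26 tested with 1 lower (median 1.08). The count was 9 after quantile normalization, with a median of 0.46, 4 or 5 without P1 or either SC array and 4 with the SC arrays as 1 sample. SLC2A3, a glucose transporter, read 165200 and 93039 in PA-eSLCs and 3222 and 4090 in SCs (5.09 ± 0.34), and SLC2A1 read 48710 and 23547 in PA-eSLCs and 1132 and 924 in SCs (5.05 ± 0.41). PFKFB3, which raises glycolytic flux, read 61553 and 29902 in PA-eSLCs and 3034 and 2194 in SCs (4.06 ± 0.45). These 3 kept their calls without each array, and P1 was above P4 in each. LDHA, the lactate dehydrogenase of glycolytic tissue, read 157820 and 118120 in PA-eSLCs and 20564 and 30479 in SCs (2.45 ± 0.41), and its call ended without SC P5. ENO2, the neuronal enolase, was the 1 called lower, at 59.6 and 47.8 in PA-eSLCs and 524 and 406 in SCs (-3.11 ± 0.26), while its other probe gave 0.31.

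Lipid genes were counted in 2 lists. Of 30 genes of fatty acids and prostaglandins, 12 (40%) were called higher and 5 lower, with 3 lower without P1, P4 or either SC array. Besides PTGS2, the prostacyclin synthase PTGIS read 5142 and 4246 in PA-eSLCs and 152 and 125 in SCs (5.08 ± 0.49), and the fatty acid elongase ELOVL6 read 36147 and 25564 in PA-eSLCs and 808 and 605 in SCs (5.44 ± 0.45). FABP4, a fatty acid carrier of fat cells, was at the floor in both lines (at least 98.9-fold lower), as was HPGD, which inactivates prostaglandins (at least 26.7-fold lower). Of 24 genes of the cholesterol list, 5 (20.8%) were called higher, close to 20.3% of all genes, and 1 (4.17%) lower, against 14.9%. The count higher was 1 without P1, 0 without P4, 8 without SC P5 and 1 without SC P10. HMGCS1 read 19993 and 18885 in PA-eSLCs and 5503 and 1895 in SCs (2.59 ± 0.57), and its call ended without P1, P4 or SC P10.

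Immune and protease genes were called in both directions. Of 28 genes of antigen presentation and interferon response tested, 10 (35.7%) were called lower and 2 higher, and 2 to 5 lower without P1, P4, SC P5 or SC P10. IRF1, an interferon-induced factor, read 13.3 and 24.8 in PA-eSLCs and 10324 and 4370 in SCs (-8.53 ± 0.68), and PSMB8, an immunoproteasome subunit, read 188 and 139 in PA-eSLCs and 3232 and 2765 in SCs (-4.21 ± 0.37). The 2 called higher were TAP1, a peptide transporter (954 and 584 in PA-eSLCs and 128 and 104 in SCs, 2.70 ± 0.30), and IRF7 (19242 and 10532 in PA-eSLCs and 2842 and 2534 in SCs, 2.41 ± 0.36). Of 27 secreted immune genes, 7 (25.9%) were called higher and 11 (40.7%) lower. The counts were 3 or 4 higher without P1, P4 or either SC array and 6 or 7 lower without P4 or SC P5. C3, the central complement component, read 4434 and 4525 in PA-eSLCs and 86.9 and 123 in SCs (5.43 ± 0.33), and the chemokine CXCL12 read 70.2 and 13.3 in PA-eSLCs and 1712 and 1971 in SCs (-5.91 ± 0.72). The chemokine CXCL3 read 13.3 and 21.2 in PA-eSLCs and 1696 and 3808 in SCs (-7.24 ± 0.95).

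Of 30 proteases and inhibitors of the matrix, 17 (56.7%) were called lower and 7 higher, with 4 higher without SC P5. CTSK, a collagen-degrading cathepsin, read 217 and 108 in PA-eSLCs and 64241 and 54941 in SCs (-8.60 ± 0.90), and MMP2, a gelatinase, read 54.4 and 228 in PA-eSLCs and 20424 and 15671 in SCs (-7.33 ± 0.72). CTSL, a lysosomal cathepsin, was higher at 18081 and 17861 in PA-eSLCs and 187 and 186 in SCs (6.59 ± 0.86), and MMP15, a membrane-bound metalloprotease, at 9373 and 8670 in PA-eSLCs and 84.9 and 59.3 in SCs (6.99 ± 0.50). Of 10 germ-line genes tested, 4 (40%) were called higher and 0 lower. Among the 4 was SYCP3, of the meiotic synaptonemal complex (401 and 299.9 in PA-eSLCs and 37.1 and 40.0 in SCs, 3.17 ± 0.53). The call of SYCP3 ended without either SC array, and 2 germ-line genes were called without SC P5. Of 350 genes on chromosome X tested, 73 (20.9%) were called higher and 47 (13.4%) lower, close to 20.3% and 14.9% of all genes, with 42 and 41 higher without SC P5 and SC P10.

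The PA-eSLC calls were then set beside those of the other origins against the same SC arrays. Of the 2229 genes called higher, 1475 were also called for both IVP- and NT-eSLCs and 311 for 1 of them, and 443 (4.04% of genes tested) were called for PA-eSLCs alone. Of the 1633 called lower, 1275 were called for both, 185 for 1 and 173 (1.58%) for PA-eSLCs alone. The 3 comparisons share the SC arrays, and the calls that chose these 616 genes used every array, so their differences from SCs are a description. The counts ran from 187 to 625 higher and from 43 to 300 lower when 1 array was left out, lowest without P1 and highest without I2.

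The 443 genes passed for PA-eSLCs and failed for the other origins, so smaller differences in the other eSLCs are fixed by that choice. The shared SC arrays also move these differences together, and no no-change value was computed. The values below are therefore a description only. The median log2 difference of the 443 genes from SCs was 1.28 in PA-eSLCs, 0.85 in IVP-eSLCs and 0.76 in NT-eSLCs. In IVP- and NT-eSLCs, 7 and 9 of them lay on the other side of SCs. At least 2-fold separated 63 of them from SCs in both other origins, without reaching the adjusted p in either. The 173 genes had medians of -1.42, -0.93 and -0.80. The median difference of PA-eSLCs from the mean of the other origins was 0.53 and -0.65, and 56 and 36 genes were at least 2-fold from that mean. Both PA arrays lay above all 4 other eSLC arrays in 228 of the 443 genes, and in 12.0% of all genes tested, and below all 4 in 64 of the 173, and in 4.75% of all. The rule chose genes by a PA-eSLC difference, so a higher share is fixed by the choice. Against N2, on the same slide as P1 and P4, the median difference was 0.56 for the 443 genes and -0.72 for the 173, and against I2 it was 0.30 and -0.24.

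The difference between origins was tested directly, in a contrast that leaves out the SC means. Between PA-eSLCs and the mean of IVP- and NT-eSLCs, limma called 0 genes higher and 0 lower (0% of 10957), with a lowest adjusted p of 0.559. At an unadjusted p under 0.05 there were 954 genes, and 159 of these differed upwards and 126 downwards by 2-fold or more. The t-test of the methods at unadjusted p gave 57 and 44. Without N2, 6 genes were called higher and 71 lower. No gene is therefore called particular to PA-eSLCs among the lines.

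Among the genes called higher for PA-eSLCs alone, the 8 farthest from the nearer of the other origins are shown with all arrays. TNFRSF19, a receptor of the TNF family and WNT target, read 831 and 309.5 in PA-eSLCs and 37.6 and 48.2 in SCs, and 120.3 on I2, 90.4 on I9, 76.8 on N2 and 183 on N7. Both PA arrays were above every other array. PYY2, a gene of the pancreatic polypeptide family, read 116960 and 12276 in PA-eSLCs and 141 and 126 in SCs, and 92895 on I2, 1020 on I9, 1266 on N2 and 1140 on N7, so that P1 and I2 were high and P4 intermediate. BNIP3, a mitochondrial protein induced by hypoxia, read 46755 and 16404 in PA-eSLCs and 2747 and 2452 in SCs, and 18745 on I2, 4404 on I9, 4671 on N2 and 6400 on N7, where P4 lay below I2. GATA5, an endoderm and heart factor, read 316 and 191 in PA-eSLCs, with both SC arrays at the floor, and 187 on I2, 33.7 on I9, 37.3 on N2 and 82.7 on N7, with P4 close to I2. ZBTB7B, a zinc finger factor, read 145 and 60.2 in PA-eSLCs and 25.7 and 41.5 in SCs, and 34.6 on I2, 23.8 on I9, 26.4 on N2 and 22.6 on N7, although its other probe gave a log2 difference of -0.06. The PA arrays were the 2 highest, with SC P10 next to P4. PHF13 read 991 and 411 in PA-eSLCs and 208 and 209 in SCs, and 271 on I2, 174 on I9, 180.4 on N2 and 224 on N7, again with the PA arrays highest, but with I2 next to P4. In ASGR1 (2.49) and the zinc transporter SLC30A3 (at least 17.1-fold) P1 was the highest array and I2 lay above P4. P1 was above P4 in all 8 genes.

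Among those called lower for PA-eSLCs alone, SFRP1, a secreted WNT inhibitor, read 107 and 133 in PA-eSLCs and 600.4 and 264 in SCs, and 379.6 on I2, 698 on I9, 404 on N2 and 274 on N7. MMP1, an interstitial collagenase, read 117 and 99.3 in PA-eSLCs and 1226 and 385 in SCs, and 1040 on I2, 533 on I9, 181 on N2 and 450.4 on N7. In both genes P1 and P4 were the 2 lowest of the 8 arrays. GUCY1B1, a subunit of soluble guanylate cyclase, read 18.9 and 14.5 in PA-eSLCs and 119.6 and 147 in SCs, and 30.5 on I2, 77.3 on I9, 44.5 on N2 and 200.4 on N7, again with the PA arrays lowest, although 1 of its 3 probes gave a PA-eSLC minus SC difference of -0.17. SUMF2 read 13.3 and 15.7 in PA-eSLCs and 1199 and 1143 in SCs, and 13.8 on I2, 429.5 on I9, 641 on N2 and 696 on N7, where I2 was as low as the PA lines. BDH1 (-5.13), TCIM (-7.33) and the X-linked MID1 (-4.42) had I2 close to or below P4 too. For TCIM, N7 was at the floor as well, as were I2 and P1. TGFB3, a ligand of the TGF-beta family, read 38.5 and 125 in PA-eSLCs and 1222 and 1657 in SCs, and 71.3 on I2, 431 on I9, 434 on N2 and 174 on N7, so that P4 lay above I2. The call of each of these 16 genes ended without at least 1 of the 8 arrays, and without P1 in 15 of them.

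**Figure D5:**
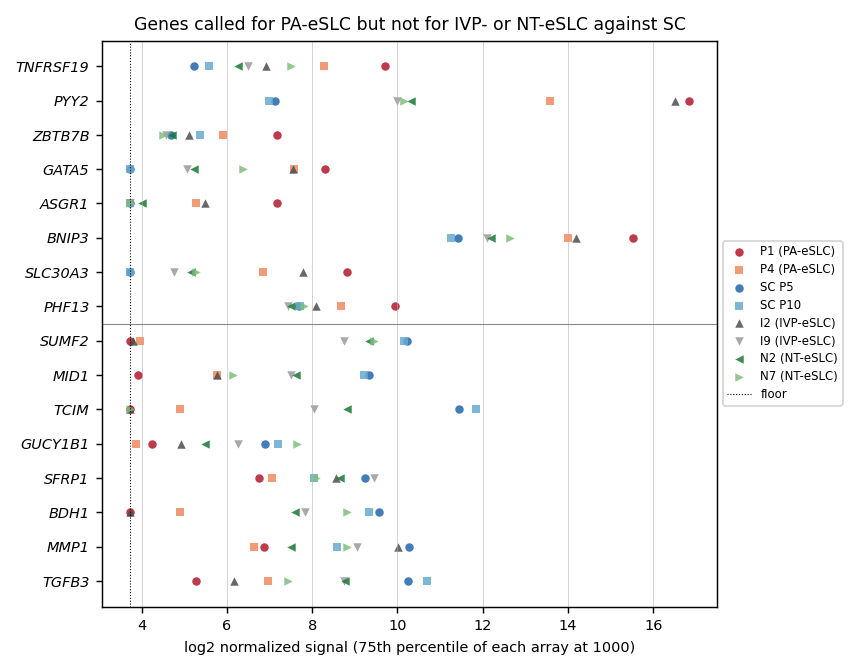
Log2 normalized signal (75th percentile of each array at 1000) on all 8 arrays of the 8 genes called higher (top) and the 8 called lower (bottom) for PA-eSLCs alone that lie farthest from the nearer of the other origins. Grey triangles are IVP-eSLCs and green triangles NT-eSLCs, and I2 lies near the PA-eSLC symbols in PYY2, BNIP3, SUMF2 and BDH1.

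The lists of the respiratory chain and the mitochondrial ribosome are described next, since 16.2% and 13.5% of their tested members were called higher for PA-eSLCs alone, against 4.04% of all genes tested. Of 74 respiratory chain and ATP synthase genes tested, 24 (32.4%) were called higher and 0 lower (median 0.82, and 0.56 and 0.50 for IVP- and NT-eSLCs), and 12 of the 24 were called for PA-eSLCs alone. COX7B, a subunit of complex IV, read 64520 and 68376 in PA-eSLCs and 19662 and 23138 in SCs (1.64 ± 0.23), ATP5MC1, of the ATP synthase ring, read 71971 and 83350 in PA-eSLCs and 21604 and 27416 in SCs (1.67 ± 0.20) and NDUFA11, of complex I, read 76485 and 68257 in PA-eSLCs and 20875 and 27078 in SCs (1.60 ± 0.23). In all 3 both PA arrays were above both SC arrays, without overlap. Among the 12, NDUFB3 read 18315 and 17771 in PA-eSLCs and 7988 and 8434 in SCs (1.14 ± 0.19). COX6B1 read 74322 and 68378 in PA-eSLCs and 31881 and 37071 in SCs (1.05 ± 0.25). In IVP- and NT-eSLCs the differences from SCs were 0.85 and 0.52 for NDUFB3 and 0.65 and 0.56 for COX6B1. In IVP-eSLCs, NDUFB3 (limma adjusted p = 0.0168), NDUFB4 (0.0229) and ATP5MF (0.0163), all among the 12, failed only the 2-fold cut-off. COX6B1 (0.0908) missed both criteria there. The call of COX6B1 ended without P1, P4 or either SC array. The counts depended on the scaling, with 5 higher and 3 of them for PA-eSLCs alone after quantile normalization (median 0.38) and 0 in the values the authors normalized, and they were 13 without P1 and 12 without SC P5. Against N2 on the same slide the median was 0.15.

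Of 74 mitochondrial ribosomal protein genes, 19 (25.7%) were called higher and 1, MRPS6 (-1.20), lower (median 0.73), and 10 of the 19 and MRPS6 were called for PA-eSLCs alone. The call of MRPS6 ended without P1 or either SC array and with the slide as a block. MRPL50 read 5393 and 5839 in PA-eSLCs and 1388 and 1860 in SCs (1.80 ± 0.29), MRPL28 read 2454 and 2132 in PA-eSLCs and 879 and 812 in SCs (1.44 ± 0.19) and MRPL10 read 39517 and 29803 in PA-eSLCs and 16499 and 11525 in SCs (1.32 ± 0.29), all 3 of the large subunit. The call of MRPL10 ended without P1 or SC P10. After quantile normalization 9 were called higher, 4 of them for PA-eSLCs alone, and 0 in the values the authors normalized, and the count was 10 without SC P5. Against SCs the median of these genes was 0.53 for IVP-eSLCs and 0.55 for NT-eSLCs. The median of PA-eSLCs was 0.30 against N2 on the same slide, 0.13 against I2, 0.25 against I9 and 0.06 against N7. Cytoplasmic ribosomal protein genes had a median of 0.83, with 3 of 81 called higher and 1, RPS27L (-1.46), lower, 14 higher without N2 or N7 and 1 higher without P1 or either SC array. The call of RPS27L ended without P1, P4 or either SC array. The median of the list was 0.06 after quantile normalization and -0.06 against N2. The 15 housekeeping genes had a median of 0.56, and 0.04 after quantile normalization. These abundant transcripts moved with the scaling in the same direction as the mitochondrial lists, and their part in those counts was not tested.

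P1 and P4 differed more than the SC arrays did. Over 10239 genes well above background on both, the SD of the log2 difference was 0.672, against 0.424 between SC P5 and SC P10. P1 was at least 2-fold above P4 in 644 genes and P4 above P1 in 349, against 189 and 136 between the SC arrays. At least 8-fold separated 26 and 13 genes in the PA lines and 0 in SCs. Of the 3862 genes called against SCs, 447 (11.6%) were at least 2-fold apart between P1 and P4.

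The genes highest in P4 over P1 were taken by rank, not from a gene list. IFNT3 read 146 on P1 and 9150 on P4. ISG15, an interferon-induced ubiquitin-like protein, read 14.5 and 847, and IFI6 read 36.3 and 1791. PRP2, a prolactin-related protein of the placenta, read 14.4 and 895, and the chemokine CCL2 read 18.3 and 872. P1 was near the floor in all of these but IFNT3. Among the other eSLC arrays, ISG15 read 66.9 on I2, 672 on I9, 1418 on N2 and 800.0 on N7. In the other direction, BOLA, a class I antigen-presenting gene, read 23586 on P1 and 746 on P4, and ARMCX1, X-linked, read 436 and 20.4. UNCX, a homeobox factor, read 467 on P1 and was at the floor on the 7 other arrays. DEFB123, a defensin, read 710.2 and 28.5, and CRYBA2 read 352 on P1 and was at the floor on P4. With 1 array per line, these differences have no replicate check.

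At the threshold itself, PRPF38A was the gene just inside the adjusted p among the genes called higher (1.02 on its brightest probe and -0.60 on its lowest, adjusted p = 0.0496) and SYTL4 the one just outside (1.29, 0.05). Among the genes called lower, NUDT19 was just inside (-1.94) and FST, an activin antagonist, just outside (-4.14, adjusted p = 0.0505).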

How the data were processed

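RNA of 8 samples was hybridized in 1 colour to Agilent bovine arrays, 2 arrays per condition, and scanned with Feature Extraction 11.5.1.1, whose deposited intensity files were used here. The authors normalized the arrays in GeneSpring, and their deposited table of normalized signal intensity was used only as an alternative, since its scale and centring are not stated. The median of its columns ran from 118.74 to 500.76, and 9359 of 43653 probes held values within 1% of each other in the SC columns, against 127 in the scanner intensities.

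From the deposited background-subtracted intensity, control spots and outlier spots were left out, spots of a probe were averaged, each array was scaled so that its 75th percentile was 1000, values under 13.28 were set to that floor, and log2 was taken. Of 43653 probes, 26743 were named through their RefSeq accession, giving 12603 genes, of which 8164 had more than 1 probe. The brightest probe stood for a gene, and 10957 genes well above background on both arrays of a condition were tested with limma 3.58.1 in R 4.3.3 over all 8 arrays. On simulated data of 10957 genes, 49.5% of 200 genes changed 4-fold were called between PA-eSLCs and SCs, with 3 unchanged genes called and no sign errors. The processed intensity of Feature Extraction was out of step with the background-subtracted one on 6 arrays (Spearman 0.161 to 0.216 over probes, against 0.971 to 0.973 on the other 2) and was not used for values.

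On the 8 arrays 71.2% to 76.7% of spots passed the scanner's background test, and the dimmest of them lay 75.3- to 136-fold under the 75th percentile. The number of arrays limits the precision. Alternatives covered scaling, background, signal column, filter, probes of a gene, arrays in the fit, slide, test and leaving out each array.

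The members and gene lists were chosen with earlier results of these data known. Genes named by rule were the 10 largest rises and falls measured above the floor on all 4 arrays, the 8 largest lower bounds in each direction among genes not well above background on either array of the dim condition, the 8 genes called for PA-eSLCs alone in each direction that lay farthest from the nearer other origin, the 5 most different between P1 and P4 in each direction, and leading list members. Other genes, among them VIM, COL1A2, COL3A1, CDH1, ESRP1, TFAP2C, CYP11A1, HSD3B1, STAR, CYP19A1, PTGS2, POU5F1, NANOG, NDUFB3, COX6B1, MRPS6, RPS27L, DDX3Y and USP9Y, were named after their values were seen. One gene is not reported here. A planned search of promoters for motifs was not run, since no sequence was used here.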

Additional observations from a re-analysis of the deposited data

Results flagged for a closer look

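DDX3Y, a Y-linked RNA helicase gene, read 368.7 on the array labelled P1 and was at the floor of 13.28 on P4 and both SC arrays. USP9Y, another Y-linked gene, read 156.8 on P1 and was at the floor on P4 and both SC arrays. Neither gene was part of the comparison. Outside it, N7 read 757 for DDX3Y and 185.7 for USP9Y, and N7 alone was above the floor for EIF1AY (513) and TSPY (49.9). SRY and HSFY2 were at the floor on all 8 arrays. ZNF280BY, also annotated to Y, read 500.5 on P1 and 456.6 on P4, and so did not set P1 apart. Of the maternally expressed imprinted genes, PHLDA2, H19, CDKN1C, ASCL2 and MEG3 were highest on P1, and TSSC4, GRB10 and UBE3A were lowest on it. The paternally expressed NNAT, DLK1 and IMPACT were also highest on P1. The DDX3Y and USP9Y signals on P1 go against its label, which may be wrong. The label itself was not tested.

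ZBTB7B lay above the SC mean on both PA arrays, by 1.52 on the log2 scale, and below it on both NT-eSLC arrays, by -0.42, on its brightest probe. Its other probe gave a log2 difference between PA-eSLCs and SCs of -0.06. PA-eSLCs lay above NT-eSLCs by 1.93 ± 0.48 (SE, n = 2 arrays each), with an adjusted p of 0.502 in the limma fit over all genes, which misses the threshold.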

How the results depend on the processing

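No paired analysis was possible because the labels number every sample as replicate 1, so no number links samples across conditions. Against SCs, 2229 genes were called higher and 1633 lower. The counts were 1303 and 1001 with the SC arrays as 1 sample, 940 and 726 with the methods' t-test after Benjamini-Hochberg adjustment, 1105 and 1008 in the values the authors normalized, 226 and 259 on slide 2 alone and 127 and 88 with the processed intensity. Leaving out 1 array gave 1257 to 2350 higher and 957 to 1700 lower, lowest without SC P5.

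For PA-eSLCs alone, 443 and 173 genes were called. The counts were 281 and 115 with the SC arrays as 1 sample, 672 and 334 with only the conditions compared in the fit, 177 and 80 in the values the authors normalized and 10 and 13 with the processed intensity. The count lower was 113 with normexp, 266 with the methods' t-test at unadjusted p and 413 after adjustment. Leaving out 1 array gave 187 to 625 and 43 to 300.

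Against the mean of the other origins, 0 genes were called, 2 higher and 4 lower in the values the authors normalized, 57 and 44 with the methods' t-test at unadjusted p, and 0 to 6 and 0 to 71 with 1 array left out, highest without N2. With the 2-fold criterion and no test there were 380 and 354.

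Of 176 genes named and called, 170 were called after quantile normalization, 174 after median scaling, 158 with the slide as a block, 113 with the methods' t-test after adjustment, 135 with the SC arrays as 1 sample, 147 in the values the authors normalized and 69 on slide 2 alone, and 127 without each of the 8 arrays. The log2 difference changed sign in the values the authors normalized for PRRX1 (1.23), AXIN2 (-0.03), ID1 (2.62), ISG15 (1.96) and TSSC4 (3.64), and when 1 array was left out for ISG15 (-4.11 to 1.76), MEG3 (-0.03 to 3.93) and NNAT (-3.10 to 0.32). The cause was not tested. Normexp was run on the median signal, an alternative chosen after seeing the data, since the mean signal was not used here. With 1 array left in a condition, that array was assumed to vary like the others. Signals near the floor limit folds to lower bounds.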
